A study of Mus musculus with 2 samples.

Results

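The genes described here are 38 genes of the lysosome and of its proton pump in the mouse, with the cathepsins left out. They were chosen by symbol: every row of the 2 expression matrices whose symbol was on a fixed list of 38 names was taken, and all 38 were found among 31053 measured features. By role they were 9 lysosomal membrane proteins, 11 hydrolases, 3 soluble cofactors, 6 subunits of the membrane sector (V0) of the proton pump, 7 subunits of its catalytic sector (V1) and 2 accessory subunits.

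The lysosome is the acidic compartment in which a cell breaks down what it has taken up or no longer needs. Its lumen holds soluble hydrolases and the cofactors that present lipids to them, and its limiting membrane is coated with heavily glycosylated proteins such as Lamp1 and Lamp2. The acid is made by the vacuolar proton ATPase (V-ATPase), in which V1 hydrolyses ATP and V0 carries protons across the membrane. Microglia, the resident macrophages of the brain, engulf dying cells and debris during development and depend on this compartment, whereas V-ATPase also acidifies endosomes and secretory vesicles in nearly every cell. Transcription factors of the TFEB and TFE3 family bind the E-box CACGTG near the start of many lysosomal genes.

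Single-cell RNA sequencing (10x Genomics, 3′ chemistry with unique molecular identifiers, UMIs) had been run on cells sorted as positive for both Cd11b and Cd45 from the hypothalamic and thalamic region of CD1 mouse embryos at E15.5 (embryonic day). The control library came from 10 pooled embryos of 1 undisturbed dam. The stressed library came from 5 pooled embryos of 1 dam that was kept at 4 °C for 30 min a day on 5 days, starting at E11.5. Both groups were described as wild type and carried no transgene. With 1 pooled library per condition there was no replicate, so no p-value is given; a difference between the libraries cannot be told apart from a difference between these dams, litters or preparations. Intervals are exact 95% intervals and cover counting error only.

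The control file held 1156 cell barcodes and 2833015 UMIs, the stressed file 1467 barcodes and 6582188 UMIs, and 1068 and 1407 cells were kept. Clustering gave a microglia-like class of 690 control and 1139 stressed cells (1823324 and 5161574 UMIs, median 2201 and 3952 per cell), and 10 microglial marker genes summed to 5418 and 5988 CPM (counts scaled to a common total, UMIs per 1e6 UMIs of the class) there. Smaller classes were border-macrophage-like cells (78 and 32, led by Pf4 and Lyve1), monocyte- or granulocyte-like cells (32 and 26, led by S100a8) and neural-like cells (219 and 177, led by Nnat and Sox11), which the sort should have removed. Another 49 and 33 cells with haemoglobin or vascular genes stayed unnamed. The libraries shared 13 barcodes, of which 1 was kept in both, as a neural-like cell of 735 UMIs in control and of 28384 UMIs in stressed. Among the neural-like cells, 4 of 219 control and 23 of 177 stressed cells took at least 0.5% of their UMIs from 10 macrophage genes, and those cells held 60.93% and 92.28% of all macrophage UMIs in the class; results for neural-like cells are therefore given with and without them. The libraries also differed in sex make-up: 135 of 690 control microglia-like cells and 0 stressed ones had Y-linked UMIs without Xist, so the X-linked members Lamp2, Atp6ap1 and Atp6ap2 are also given in cells with Xist and no Y-linked UMI.

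Promoter sequence is shown first, because the E-box is the letter pattern by which these genes are usually grouped. RefSeq windows of 300 bases on GRCm38.p6, from 250 before to 50 after a gene's start, were matched for 33 of the 38 genes, and 9 of them held CACGTG (27.3%, Clopper-Pearson interval 13.3% to 45.5%). The same motif lay in 2187 of 27025 genes with such a window (8.09%). The longer form TCACGTGA, which contains CACGTG, lay in 4 of 33 members (12.1%) and in 304 of all genes (1.12%). With a further G before and C after it, this form lay in 0 of 33 members and in 100 of all genes (0.37%). All these motifs read the same on both strands. By role, E-boxes were found in 3 of 6 V0 genes, 1 of 4 V1 genes, 3 of 10 hydrolases, 2 of 8 membrane proteins, 0 of 3 cofactors and 0 of 2 accessory subunits. The stretches shown lie before the RefSeq start and outside every GENCODE exon, run 5′ to 3′ on the gene's strand, and have the E-box in capitals. Lamp1, the most abundant membrane protein of the group, had 4 of them; Glb1, the lysosomal beta-galactosidase, had 1; Atp6v0b, a proteolipid of the V0 ring, had 2; and Atp6v1a, the catalytic subunit, had 1 in the longer form. The GENCODE gene of Atp6v1a begins further upstream, at 44139705 on its strand, so its stretch lies in an intron of that longer annotation.
Lamp1 (chr8:13159021-13159160, plus strand): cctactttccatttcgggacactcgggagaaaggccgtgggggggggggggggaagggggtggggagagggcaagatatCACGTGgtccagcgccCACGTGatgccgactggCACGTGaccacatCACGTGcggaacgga
Glb1 (chr9:114400938-114401075, plus strand): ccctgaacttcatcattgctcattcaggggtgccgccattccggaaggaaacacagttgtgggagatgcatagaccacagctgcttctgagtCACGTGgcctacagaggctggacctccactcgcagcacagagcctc
Atp6v0b (chr4:117887334-117887469, minus strand): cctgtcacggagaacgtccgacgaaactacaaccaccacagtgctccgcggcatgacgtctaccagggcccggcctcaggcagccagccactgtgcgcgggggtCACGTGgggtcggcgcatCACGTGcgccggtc
Atp6v1a (chr16:44139306-44139399, minus strand): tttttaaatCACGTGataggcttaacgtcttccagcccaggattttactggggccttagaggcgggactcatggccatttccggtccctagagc
Counted in bases from the start, the middles of the E-boxes lay at -58, -42, -25 and -12 in Lamp1, at -45 in Glb1, at -33 and -15 in Atp6v0b and at -128 in Atp6v1a. The other genes with an E-box were Mcoln1, Gaa, Lgmn, Atp6v0d1 and Atp6v0e. A match says only that the letters are present; binding was not measured.

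In the microglia-like cells the group made up 1.40% of control and 1.34% of stressed UMIs (13982 and 13378 CPM, from 25494 and 69050 UMIs). The levels count 3′ ends and are not divided by length. Hydrolases held the largest portion of the group, 4597 and 4557 CPM, followed by V-ATPase subunits with 4046 and 3724, membrane proteins with 3321 and 3230, and cofactors with 2018 and 1866. Single genes ranged from a few CPM for Atp6v0c to 2346 and 2445 for Lgmn, as the plot of levels by gene shows.

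**Figure D1:**
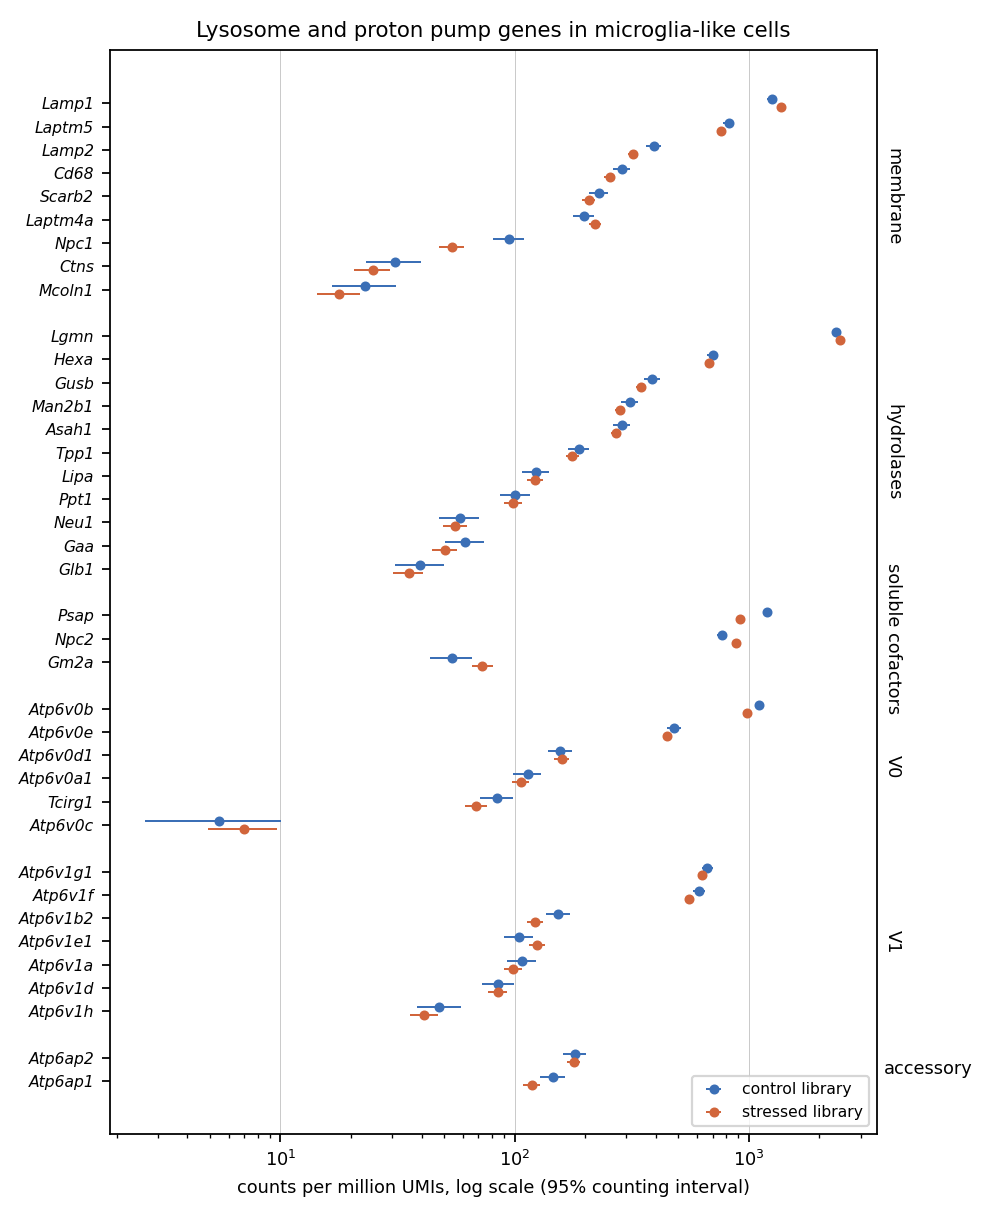
Level of each of the 38 genes in microglia-like cells, in CPM on a log axis, with genes grouped by role; points are the summed control and stressed cells and bars are exact 95% counting intervals. Lgmn stood highest at 2346 and 2445 CPM and Atp6v0c lowest at 5.48 and 6.97, and the libraries lay close together for most genes.

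Among the membrane proteins Lamp1 was highest at 1250 CPM in control and 1373 in stressed cells. Laptm5, a leukocyte protein that sends receptors to the lysosome, followed at 819 and 759 CPM. Lamp2 (chrX:38401357-38456454, GRCm38, GENCODE M21), which also takes part in autophagy, was at 392 and 319, and Cd68, the macrophage-restricted relative of the LAMP proteins, at 286 and 255. Scarb2, an abundant protein of the lysosomal membrane, was at 228 and 207 CPM, and Laptm4a at 197 and 221. Lower levels were read for Npc1, the membrane cholesterol exporter (94.3 and 53.9), Ctns, the cystine exporter (30.7 and 24.8), and Mcoln1, a calcium channel (23.0 and 17.8).

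The hydrolases were led by Lgmn (chr12:102394084-102439813, GRCm38), the asparaginyl endopeptidase legumain, which matures other lysosomal proteases. It was detected in 89.3% of control and 91.6% of stressed cells after each cell had been thinned to 1100 UMIs. Lgmn alone gave 4278 of 8382 hydrolase UMIs in control and 12618 of 23519 in stressed cells. Hydrolase sums in microglia-like cells, and ratios against them, therefore lean on this gene. Hexa, the alpha subunit of beta-hexosaminidase, was at 699 and 676 CPM, and Gusb, beta-glucuronidase, at 386 and 345. Man2b1, Asah1, Tpp1, Lipa and Ppt1, which act on mannose-rich glycans, ceramide, peptides, cholesteryl esters and palmitoylated proteins, lay between 98.2 and 310 CPM in both libraries. Gaa, Neu1 and Glb1, which release glucose, sialic acid and galactose, lay between 35.3 and 61.4 CPM. Glb1 shares 165 exon bases with Tmppe on the same strand, which stood at 1.10 and 0.58 CPM. The effect of this overlap on the level of Glb1 was not tested. Of the cofactors, Psap (chr10:60277627-60302597), the precursor of the saposins, was at 1197 and 915 CPM, Npc2, the soluble partner of Npc1 in cholesterol export, at 767 and 879, and Gm2a (chr11:55098115-55113029), the activator that lifts GM2 ganglioside to Hexa, at 53.7 and 72.7.

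Within the pump the subunits did not stand at one level. In V0, Atp6v0b was at 1106 CPM in control and 983 in stressed cells and Atp6v0e at 479 and 447, whereas Atp6v0c, the other ring proteolipid, was read only 10 and 36 times. The last 500 bases of Atp6v0c match 2 processed copies elsewhere in the genome (99.8% identity over 452 bases for the closer one), and neither copy is a row of the matrices. Its level is therefore uncertain, and so is that of Atp6v1f (615 and 554 CPM), which matches another locus at 98.8% identity over 256 bases. In V1, Atp6v1g1 (664 and 633 CPM) and Atp6v1f stood above the catalytic Atp6v1a (108 and 98.0) and the regulatory Atp6v1b2 (154 and 122). The a subunit anchors V1 to V0 and has several forms: Tcirg1, the form known from osteoclasts, was at 83.9 and 68.4 CPM, and Atp6v0a1, known from neurons, at 114 and 106. Tcirg1 held 42.5% (37.3% to 47.8%) of the UMIs of both forms in control and 39.2% (36.0% to 42.5%) in stressed cells, where Atp6v0a2, a further form, was read 81 and 186 times and Atp6v0a4 0 times.

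The main comparison asks how maternal cold exposure is related to these levels in microglia-like cells. A gene counted as measured with at least 30 UMIs over both libraries and 20 CPM, and as higher or lower when the libraries differed at least 1.5 times. Of 36 measured members, 0 were higher and 1 was lower, Npc1. Over all 5044 measured genes, 1.96% were higher and 3.49% lower, so the share among the members was near that background. The median log2 ratio of stressed over control was -0.10 over the members and -0.06 over all genes. With trimmed-mean (TMM) scaling, which moved all log2 ratios here by 0.107, the members' median was 0.00 against 0.05 over all genes.

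Npc1 was read 172 times in control and 278 times in stressed microglia-like cells, 94.3 and 53.9 CPM, a log2 ratio of -0.81 (-1.09 to -0.53). At equal depth it was found in 73 of 638 control cells (11.4%) and 68 of 1134 stressed cells (6.0%), against 22.5% and 21.5% before thinning. Npc1 is active in most cell types, so no class offered a background for it. Laptm5, a leukocyte gene, had a UMI in 1.17% and 0% of thinned neural-like cells below the macrophage limit (2 of 171 and 0 of 142, the latter allowing up to 2.56%). Those cells were kept for holding little macrophage RNA, so these shares do not stand for all neural-like cells. Across 12 other ways of processing the cells the log2 ratio of Npc1 ran from -0.93 to -0.70. It was -0.86 (-1.24 to -0.46) in resting-type cells, -0.85 in G2/M cells, -1.33 in cells with Ccl3 and Ccl4, -0.75 in cells with high Spp1 and -0.17 in S-phase cells. In border-macrophage-like cells Npc1 was read only 13 and 6 times, which gave -0.67. The 3′ end of Npc1 overlaps Rmc1 on the opposite strand by 511 exon bases, and Rmc1 itself was at 7.13 and 6.39 CPM.

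The other cholesterol and sphingolipid proteins did not pass the 1.5-fold limit, and they differed in direction. Npc2, the partner of Npc1, was read 1398 and 4535 times, and its log2 ratio was 0.20 (0.11 to 0.28). Psap was at 1197 and 915 CPM, a log2 ratio of -0.39 (-0.46 to -0.31); this lay short of the 1.5-fold limit and ran from -0.45 to -0.28 under the alternatives. In resting-type cells Psap was at 1336 and 984 CPM (-0.44, -0.54 to -0.34). Gm2a lay on the other side, at 53.7 and 72.7 CPM from 98 and 375 UMIs (0.43, 0.11 to 0.77). Lipa, which frees the cholesterol that Npc2 and Npc1 hand on, was at 123 and 122 CPM.

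**Figure D2:**
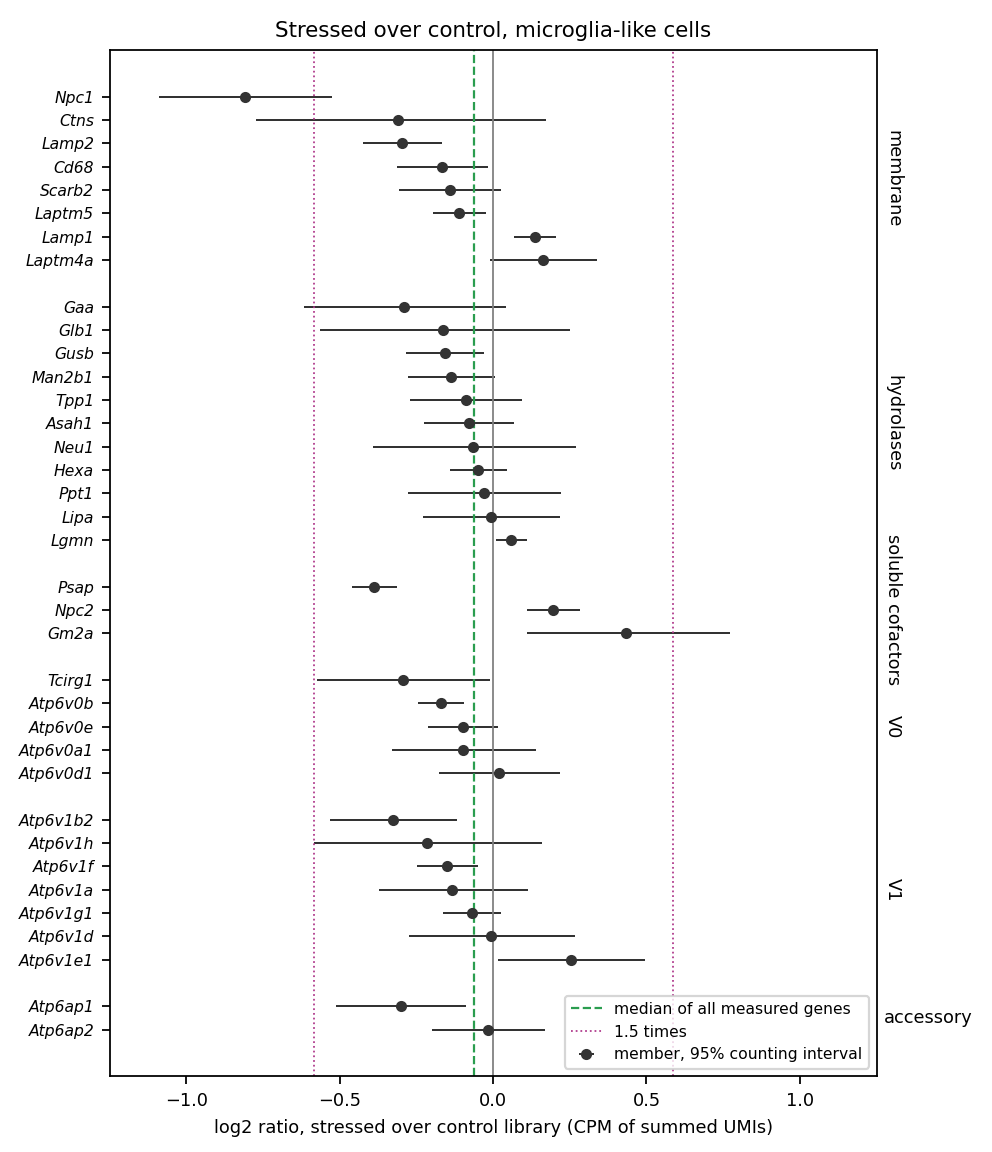
Log2 ratio of stressed over control CPM in microglia-like cells for the 36 measured members, with exact 95% counting intervals; the dashed line is the median of all measured genes and the dotted lines mark 1.5 times. Npc1 at -0.81 is the gene beyond a dotted line, and Psap at -0.39 and Gm2a at 0.43 follow on either side.

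The membrane proteins other than Npc1 differed little: Lamp1 by 0.14 (0.07 to 0.20), Laptm5 by -0.11 (-0.20 to -0.02) and Cd68 by -0.17 (-0.31 to -0.02). The summed membrane proteins gave -0.04, the summed hydrolases -0.01 (-0.05 to 0.02) and the summed V-ATPase subunits -0.12 (-0.16 to -0.08). Lgmn, at 0.06 (0.01 to 0.11), and Hexa, at -0.05 (-0.14 to 0.05), stood near 0 with 4278 and 12618 and with 1275 and 3490 UMIs behind them. Of the pump genes, Atp6v1b2 had the lowest ratio at -0.33 (-0.53 to -0.12), Tcirg1 gave -0.30 (-0.57 to -0.01), Atp6v0a1 -0.10 (-0.33 to 0.14), and Atp6v1e1, a stalk subunit, the highest at 0.25 (0.02 to 0.49). These intervals were narrow for the abundant genes and wider for the scarce ones. They hold counting error only, so they do not bound a difference related to the cold exposure.

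The X-linked members were read a second time in female cells. Lamp2 was at 392 and 319 CPM over all microglia-like cells, a log2 ratio of -0.30 (-0.42 to -0.17), and at 386 and 323 CPM in the 230 and 1058 cells with Xist and no Y-linked UMI, a ratio of -0.26 (-0.45 to -0.06). Atp6ap1, an accessory subunit of pump assembly, gave -0.30 (-0.51 to -0.09) over all cells and -0.13 (-0.46 to 0.22) in the female cells. Atp6ap2, the accessory subunit also known as the prorenin receptor, gave -0.02 and -0.05. In the female cells Npc1 stayed lower at -0.76 (-1.17 to -0.32), and Neu1, the lysosomal sialidase, passed the limit at 0.64 (0.03 to 1.32), with 23 and 283 UMIs.

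Further genes of the compartment were taken from 5 fixed lists. Of 22 other hydrolases 16 were measured: 1 was higher and 2 were lower, with a median of -0.21. Acp5, the tartrate-resistant acid phosphatase, was at 13.2 and 31.2 CPM (24 and 161 UMIs), a log2 ratio of 1.24 (0.62 to 1.93). Ids, which cuts sulphate from heparan and dermatan sulphate, was at 29.1 and 19.4 CPM (-0.59). Of 16 other membrane proteins 12 were measured, 0 were higher and 1 was lower: Clcn7, the chloride-proton exchanger, at 28.5 and 17 CPM (-0.74). No gene passed the limit among 2 measured of 10 other V-ATPase subunits, 8 of 11 sorting genes or 13 of 14 regulators. Tfec and Tfe3, of the family that binds the E-box, gave -0.57 (35.6 and 24.0 CPM) and -0.47 (43.3 and 31.4 CPM).

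Outside the microglia-like class fewer members could be measured. In border-macrophage-like cells 2 of 29 measured members were higher in the stressed library and 1 was lower, where 9.85% and 10.2% of all genes were. The lower one was Man2b1, at 350 and 206 CPM (104 and 45 UMIs), a log2 ratio of -0.76 (-1.30 to -0.25); Ppt1 and Atp6ap1 were higher from 19 and 22 and from 21 and 25 UMIs, with intervals that held 0. Ppt1 shares 129 exon bases with Cap1 on the opposite strand, which stood at 250 CPM in both libraries' microglia-like cells. Psap did not lie below control there (713 and 746 CPM, 0.07). The class itself was made up differently in the libraries: the 10 microglial markers summed to 1332 CPM in control and 2724 in stressed cells and the 8 border-macrophage markers to 12550 and 8301, and their part in these results was not tested. In monocyte- or granulocyte-like cells 2 of 18 were higher and 1 was lower, against 12.9% and 10.4% of all genes. Lgmn was read 7 and 53 times (92.5 and 420 CPM, 2.18, 1.04 to 3.56), Lamp2 10 and 27 times (0.69), and Hexa 30 and 29 times (-0.79, -1.58 to -0.00). The make-up of this class differed widely between the libraries: microglial markers summed to 225 CPM in control and 1315 in stressed cells, border-macrophage markers to 211 and 752, and the class's own 11 markers to 27650 and 7151. Their part in these results was not tested.

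In neural-like cells 12 of 30 measured members were higher and 1 was lower in the stressed library, against 10.2% and 11.4% of all genes. The 10 macrophage genes moved the same way, 10 of 10 higher with a median log2 ratio of 3.00. Without the cells past the macrophage limit, 3 of 25 measured members were higher and 1 was lower, against 8.45% and 9.6% of all genes: Lgmn (0.88), Atp6ap2 (0.87), Atp6v1h (0.79) and Npc1 (-0.62). The summed hydrolases went from 284 to 743 CPM with all cells (1.39) and from 243 to 274 CPM without those cells (0.17, -0.18 to 0.53). Leaving out the barcode kept in both libraries as well gave 3 higher and 2 lower members, with Atp6v1a at -0.61 as the added one, and 0.14 for the hydrolase sum; with the cells past the limit kept, it gave 13 higher and 1 lower.

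The classes were compared next, each within its own library, and a member counted when it was at least 1.5 times apart from microglia-like cells the same way in both. These comparisons share the microglia-like cells of the library. Neural-like cells gave the widest gap: 30 of 36 measured members were lower and 0 higher, against 24.2% and 22.1% of all genes. Without the cells past the limit the counts were again 30 and 0, against 25.8% and 23.7%. Without the barcode found in both libraries they were 28 and 0 over all neural-like cells, and 30 and 0 below the limit. TMM scaling lowered the log2 ratios of neural-like cells over microglia-like cells by a further 0.44 in control and 0.47 in stressed cells.

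**Figure D3:**
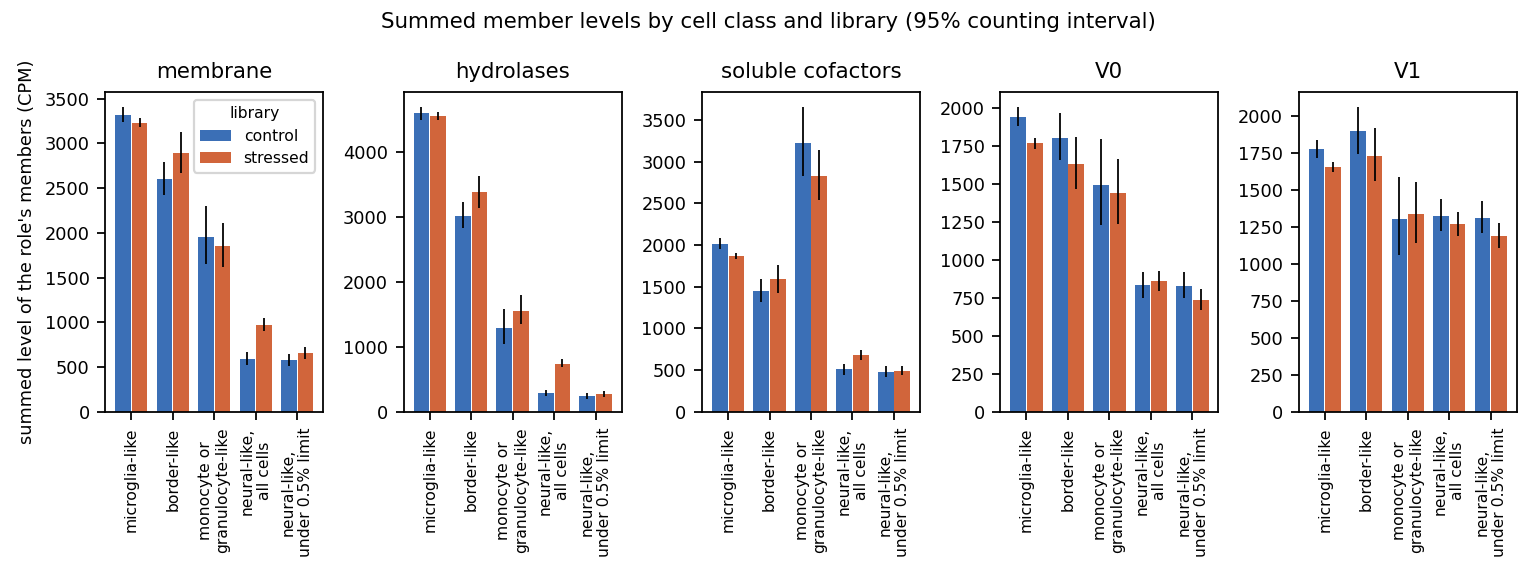
Summed CPM of the members of each of 5 roles in each class, control and stressed bars side by side, on linear axes from 0. Hydrolase bars reach 4597 and 4557 CPM in microglia-like cells and 243 and 274 in neural-like cells below the macrophage limit, whereas V1 bars reach 1315 and 1192 there.

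The summed gap differed by role, with a wide spread inside roles. With the cells past the limit left out, all 11 hydrolases were lower in both libraries. Their sum gave -4.24 in control and -4.06 in stressed cells, and the median of their mean ratios was -3.47. Gaa (-1.10 and -0.79) and Ppt1 (-1.18 and -1.48) had the narrowest gaps among them. Membrane proteins summed to -2.53 and -2.30, cofactors to -2.08 and -1.92, V0 to -1.23 and -1.26, and V1 to -0.43 and -0.48. In V1 only 2 of 7 subunits were lower in both libraries, in V0 all 5 measured ones were. The ratios in this paragraph are without TMM scaling. That scaling shifted them by -0.46 in control and -0.58 in stressed cells, which put the V1 sum at -0.895 and -1.06. Laptm5 was at 11.0 and 12.2 CPM (-6.21 and -5.95), Cd68 gave -5.43 and -5.06, and Lgmn stood at 33.1 and 61.2 CPM (-6.15 and -5.32). Laptm4a, a small transmembrane protein of endosomes and lysosomes, was at 221 and 242 CPM, 0.16 and 0.13 from the microglia-like level. The pump subunits Atp6v1g1 (619 and 531 CPM) and Atp6v1e1 gave -0.10 and -0.25, and 0.03 and -0.51. The 10 macrophage genes stood in those cells at a median of 0.631% and 1.288% of their microglia-like level, Lgmn at 1.413% and 2.503%, and Laptm5 at 1.348% and 1.612%. The limit was set on these same 10 genes, so their median was held low by the choice of cells. Over all neural-like cells that median was 1.65% and 13.68%. Lgmn stood there at 2.684% and 12.7% and Laptm5 at 2.65% and 14.09%. Of the a subunits, Tcirg1 gave -3.66 and -3.16 below the limit and Atp6v0a1 -1.22 and -0.99.

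With all neural-like cells included the gap was narrower in the stressed library: hydrolases summed to -4.01 in control and -2.62 in stressed cells. Glb1, Lgmn, Laptm5, Hexa, Cd68 and Gusb had the lowest mean ratios there, for example -4.75 and -2.87 for Hexa and -4.89 and -2.64 for Gusb. Glb1 rested on 1 UMI in each library. Laptm4a averaged 0.11 over both libraries there and ran from -0.35 to 0.22 under the alternatives, which include TMM scaling. After the cells past the limit were left out, Hexa gave -4.85 and -4.70 and Gusb -5.12 and -4.50.

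Border-macrophage-like cells, the macrophages of meninges and perivascular spaces, were closer to microglia-like cells. Of 36 measured members, 1 was higher and 5 were lower in both libraries, against 5.12% and 12% of all genes. The higher one was Laptm4a, at 316 and 357 CPM against 197 and 221 (0.68 and 0.69). Lgmn was at 1167 and 1557 CPM (-1.01 and -0.65), Laptm5 at 481 and 504 (-0.77 and -0.59) and Scarb2 at 101 in both (-1.18 and -1.04). Gaa, the acid alpha-glucosidase (-1.19 and -0.65), and Npc1 (-1.11 and -0.97) were lower from 6 to 13 UMIs per library in the border class. Cd68 lay above the microglia-like level, at 394 and 417 CPM, but passed the limit in the stressed library alone (0.46 and 0.71). The summed hydrolases gave -0.60 and -0.43, with Lgmn as 1167 of 3025 and 1557 of 3384 CPM there. V-ATPase, at 3923 and 3608 CPM, gave -0.04 and -0.05. The median of the mean ratios of both libraries was -0.31 over the 11 hydrolases and -0.12 over 14 measured V-ATPase members. Lamp1, Lamp2, Hexa, Psap and Npc2 lay between -0.91 and -0.17, and Tcirg1 gave -1.83 and -0.44 and Atp6v0a1 0.17 and -0.29.

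Monocyte- or granulocyte-like cells showed another pattern. Of 36 measured members 2 were higher and 11 lower in both libraries, against 6.75% and 17.5% of all genes. The cofactor Gm2a was at 291 and 285 CPM against 53.7 and 72.7 in microglia-like cells (2.43 and 1.97, from 22 and 36 UMIs), and Psap at 2167 and 1663 CPM (0.86 and 0.86, from 164 and 210 UMIs). The hydrolases lay on the other side, 1295 and 1560 CPM in sum (-1.83 and -1.55). The median of the mean ratios over the 11 hydrolases was -0.99. Lgmn was at 92.5 and 420 CPM (-4.67 and -2.54), and Hexa at 396 and 230 (-0.82 and -1.56). Gaa, Npc1, Tpp1, Atp6ap2 and Scarb2 were lower from at most 12 UMIs in each library, and for Tpp1, with 0 control UMIs, the control log2 ratio was -2.24 or below, set against a floor of 3 counts. Lamp1 was at 634 and 729 CPM (-0.98 and -0.91), Atp6v0a1 gave -1.10 and -1.16 from 4 and 6 UMIs, and Laptm5 -0.60 and -1.03. Npc2 was level with microglia-like cells, 766 and 879 CPM (0.00 and 0.00), and Cd68 nearly so (0.21 and -0.05). The V-ATPase sum gave -0.43 and -0.35.

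**Figure D4:**
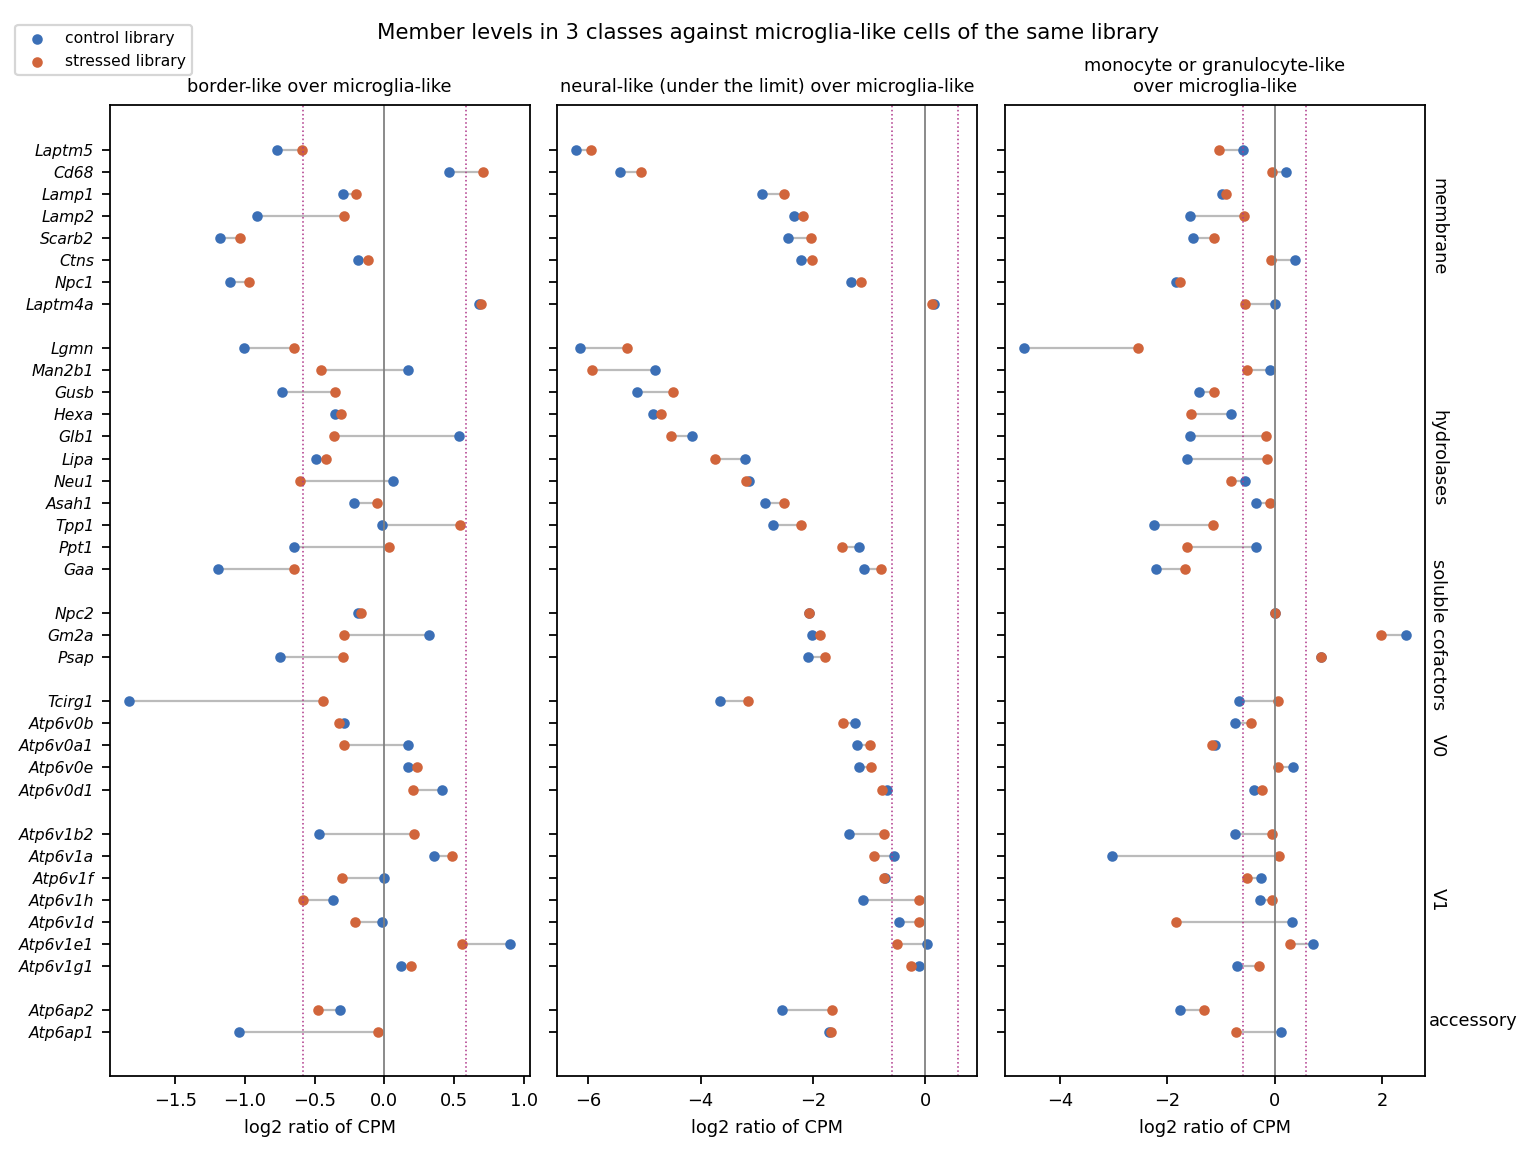
Log2 ratio of each measured member in border-macrophage-like, neural-like (below the macrophage limit) and monocyte- or granulocyte-like cells over microglia-like cells of the same library, control and stressed dots, genes by role. Most hydrolases lie far to the left in neural-like cells, with Gaa and Ppt1 nearer to the zero line. Gm2a and Psap lie to the right in monocyte- or granulocyte-like cells in both libraries.

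The balance of the a subunits was read in each class. Tcirg1 held 15.6% (6.49% to 29.5%) of the UMIs of Tcirg1 and Atp6v0a1 in control border-macrophage-like cells and 36.7% (19.9% to 56.1%) in stressed ones. In monocyte- or granulocyte-like cells it held 50% (15.7% to 84.3%, 4 and 4 UMIs) and 60% (32.3% to 83.7%, 9 and 6 UMIs of the 2 forms), and in neural-like cells below the limit 12% (2.55% to 31.2%) and 12.5% (4.19% to 26.8%). The border-macrophage-like values rest on 7 and 11 Tcirg1 UMIs, and their intervals overlap.

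Microglia-like cells were then divided by gates on cells thinned to 1100 UMIs, none of which used a member: G2/M genes (84 control and 141 stressed cells), S-phase genes (50 and 104), Ccl3 and Ccl4 (73 and 117), Spp1 (52 and 43) and the remaining, resting-type cells (379 and 729). The gates were applied in that order, and a cell took the first state it passed. Cells of the Spp1 state thus had fewer than 2 UMIs of Ccl3 and Ccl4, whereas cells of the Ccl3 and Ccl4 state could also be high in Spp1. All states were compared with the same resting-type cells of their library. A member counted when it was 1.5 times apart from resting-type cells the same way in both libraries. Many cells stood at a gate's edge: for Ccl3 and Ccl4, 44 control and 51 stressed cells were at the limit of 2 UMIs and 86 and 156 were 1 UMI below it.

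Cells with Ccl3 and Ccl4, chemokines that microglia make on activation and during tissue preparation, gave 1 member past the limit of 36, against 2.54% of all genes higher and 2.67% lower. This was Atp6v1a: its level was 170 CPM against 88.4 in control (0.95, 0.31 to 1.55) and 166 against 91.8 in stressed cells (0.85, 0.50 to 1.19). Its mean log2 ratio ran from 0.34 to 0.91 under the alternatives, stricter gates took it below the limit, and in female cells, where it averaged 0.71, 0 of 30 measured members passed in both libraries. Of 14 measured V-ATPase members 10 lay above 0 in both libraries and 0 below in both, and of 7 V1 subunits 6 lay above; of all genes 31.5% lay above in both and 28.7% below. Atp6v1g1 was at 861 against 627 CPM and 823 against 603 (0.46 and 0.45), and Atp6v1e1 at 201 against 88.4 and 169 against 118 (1.19 and 0.52). The V1 sum gave 0.47 (0.32 to 0.62) and 0.46 (0.37 to 0.55), the V0 sum 0.22 and 0.31, and the whole pump 5042 against 3963 CPM and 4738 against 3632 (0.35, 0.24 to 0.45, and 0.38, 0.32 to 0.44). The hydrolase sum stayed at -0.08 and -0.06, and Psap and Lgmn lay below 0 in both. With TMM scaling the V1 sum gave 0.36 and 0.43.

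**Figure D5:**
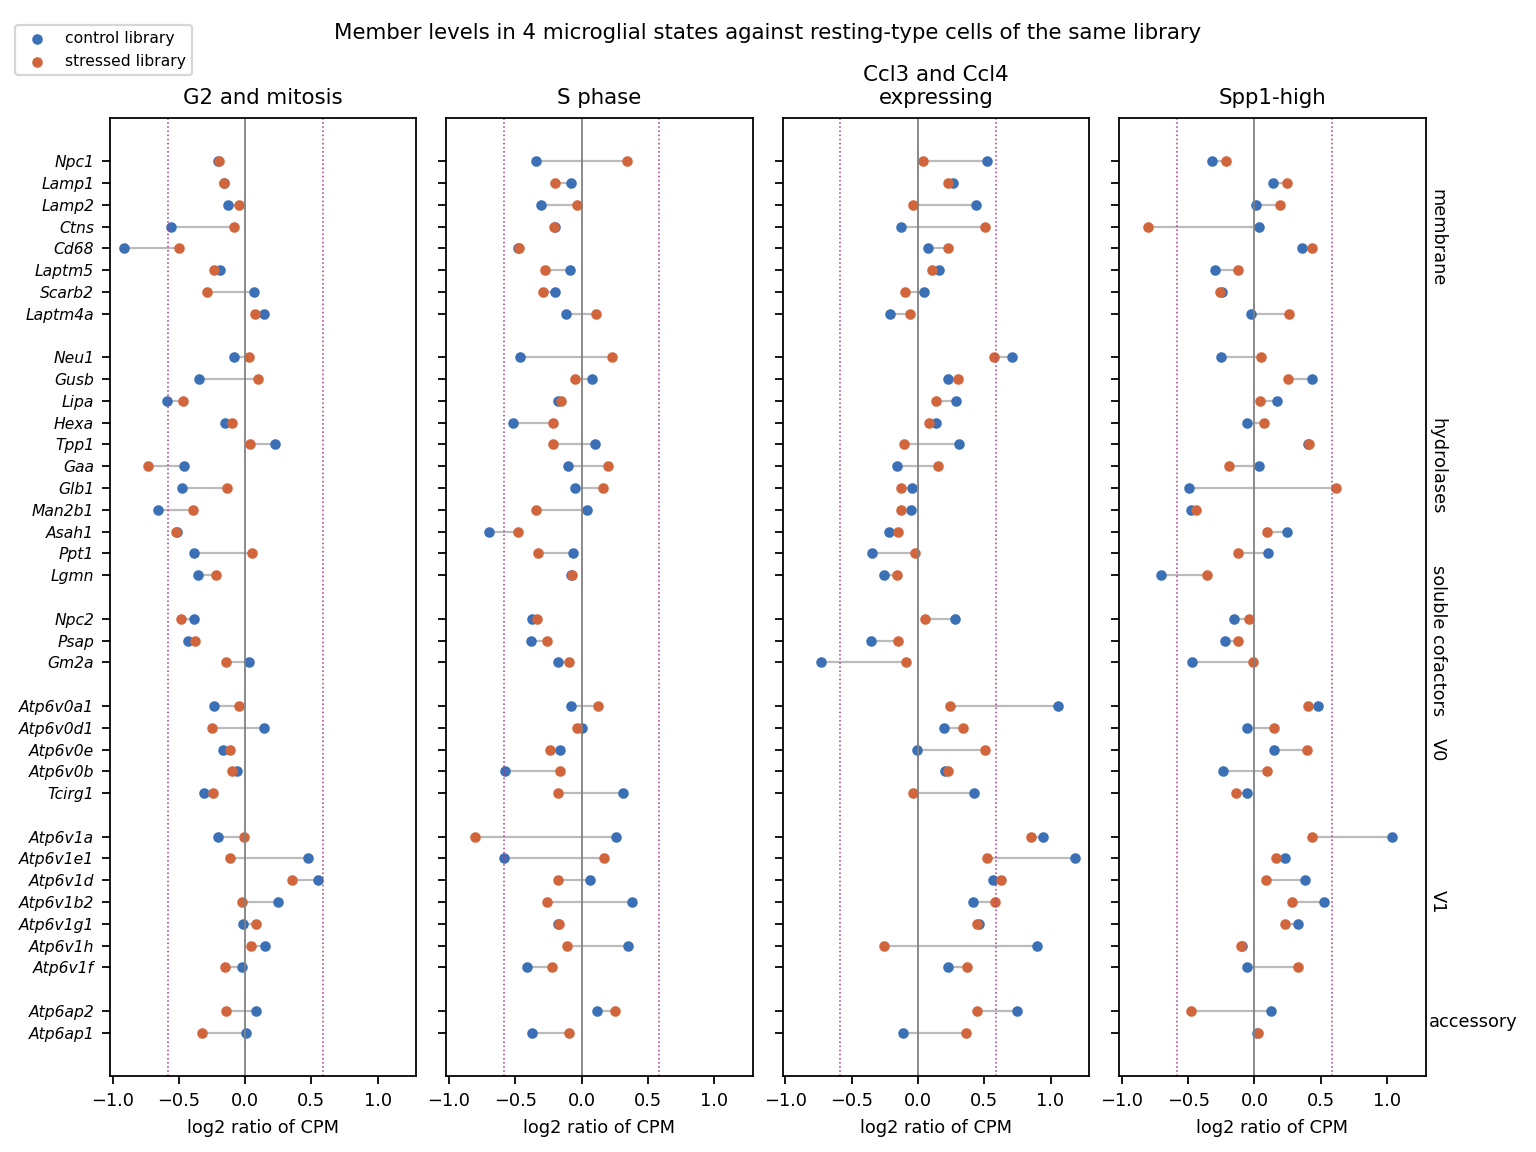
Log2 ratio of each measured member in G2/M, S-phase, Ccl3 and Ccl4, and Spp1 cells over resting-type microglia-like cells of the same library, control and stressed dots. Most V1 subunits sit right of 0 in the Ccl3 and Ccl4 panel, with Atp6v1a at 0.95 and 0.85, and in the Spp1 panel. Most dots of the G2/M and S-phase panels sit left of 0.

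In G2/M cells 0 members passed the limit in both libraries, against 6.41% of all genes higher and 2.59% lower. Cd68 was at 161 against 303 CPM in control and 187 against 265 in stressed cells (-0.92 and -0.50). Asah1, the acid ceramidase (-0.51 and -0.52), Npc2 (-0.39 and -0.48), Psap (-0.43 and -0.38) and Lgmn (-0.36 and -0.22) were also below resting-type cells, each with intervals off 0 in both libraries. Hydrolases summed to -0.33 and -0.20 and V1 to 0.06 and -0.01. S-phase cells also gave 0 members past the limit, against 4.81% and 2.57%, with Asah1 at -0.70 and -0.48 and the sum of all members at -0.21 and -0.17.

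Cells with high Spp1, osteopontin, gave 0 members past the limit as well, against 3.61% of all genes higher and 6.79% lower. Lgmn was at 1599 against 2605 CPM in control and 2010 against 2581 in stressed cells (-0.70 and -0.36). Cd68 lay above resting-type cells at 0.36 and 0.44, and Tpp1, tripeptidyl peptidase, at 0.40 and 0.41. For neither gene were the intervals of both libraries off 0, and the mean ratio of Cd68 ran from 0.02 to 0.47 under the alternatives. Atp6v1a gave 1.04 and 0.44, so it passed the limit in control cells alone. The V1 sum in this state lay above the same resting-type cells, at 0.25 (0.10 to 0.40) and 0.26 (0.13 to 0.39). Of its 7 subunits 5 lay above 0 in both libraries and 1 below, against 29.7% and 34.7% of all genes. The hydrolase sum gave -0.29 and -0.15, and the sum of all members was -0.09 and 0.03.

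Cell by cell, out of 1100 UMIs, the members took a median of 16 in control and 15 in stressed microglia-like cells, with ranges of 4 to 32 and 2 to 34. Border-macrophage-like cells had medians of 12 and 12.5, monocyte- or granulocyte-like cells 10 and 10, and neural-like cells below the macrophage limit 4 and 3.5. Among the states the medians were 17 and 16 with Ccl3 and Ccl4, 16 and 15 in resting-type, 14 and 13 with Spp1, 13 and 13 in G2/M and 14.5 and 12 in S-phase cells. The microglia-like and neural-like medians lay far apart in both libraries, whereas those of the states and of the 2 conditions lay within a few UMIs of each other.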

How the data were processed

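The deposited files were filtered 10x matrices of raw UMI counts, 1 per library, which the authors made with Cell Ranger 3.0.0; that version stands in the file headers. The tools named are Cell Ranger 3.0.0, STAR and Seurat 2.4 with the builds GRCm38.p5 and mm10, per the submitters' processing notes. Whether counting used strand is not given in the sources used here.

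Barcodes under 500 genes (88 control, 48 stressed) and then those over 10% mitochondrial UMIs (0 and 12) were dropped. Counts were scaled to 10000 per cell, and 2000 variable genes without the 38 members, Xist, Tsix and Y-linked genes gave 30 components, 15 neighbours and Leiden clusters at resolution 0.5 (scanpy 1.11.5, Python 3.11.15). Clusters were named from fixed marker lists. Scrublet called 3 and 2 doublets and so did not work; an alternative removed the 3.5% highest scores. UMIs were summed per class and library, divided by the class total to CPM, and compared as log2 ratios with exact conditional 95% intervals, after a check on simulated data; a sum of 0 was set to a floor of 3 counts. States were gated on cells thinned to 1100 UMIs: at least 3 UMIs of 18 G2/M genes, 3 of 21 S-phase genes, 2 of Ccl3 and Ccl4 or 10 of Spp1, and 52 control and 5 stressed microglia-like cells below that depth entered no state. Depth limits the scarce genes: at 30 UMIs, differences near 1.5 times lie within counting error.

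Positions were matched by Ensembl gene identifier to GENCODE M21, and promoter windows by symbol. The 3′ ends were searched with BLAST+ 2.17.0 for copies of at least 75 bases and 95% identity. TMM factors came from edgeR 4.0.16 and size factors from DESeq2 1.42.0, used for scaling only. Other alternatives were per-cell means, stricter cell filters, other clusters and gates, and female or non-cycling cells.

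Always named were Lamp1, Lamp2, Cd68, Laptm5, Psap, Lgmn, Npc2, Hexa, Tcirg1 and Atp6v0a1; in each comparison also the members past 1.5 times, up to 6 a side, the X-linked members, and of each other list up to 4 genes; 1 gene of the other hydrolases is not reported here. The members and lists were chosen with earlier results of these data known, and further members were named after their values were seen.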

Additional observations from a re-analysis of the deposited data

Results flagged for a closer look

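For 5 gene and class pairs the interval of the stressed over control log2 ratio lay above 0 in one class and below 0 in another. The difference between the classes was not tested in any of them, and all 5 involve the neural-like cells. Cd68 was at -0.17 in microglia-like and 1.68 in neural-like cells, Laptm5 at -0.11 and 2.3, and Gusb at -0.16 and 2.09. Man2b1 was at -0.76 in border-macrophage-like and 1.72 in neural-like cells, and Hexa at 1.83 in neural-like and -0.79 in monocyte- or granulocyte-like cells. Without the neural-like cells past the macrophage limit the neural-like values were 0.21 for Cd68, 0.15 for Laptm5, 0.47 for Gusb, -1.27 for Man2b1 and 0.10 for Hexa. Those values rest on 3 and 5, 5 and 8, 5 and 10, 5 and 3, and 11 and 17 UMIs in control and stressed cells.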

How the results depend on the processing

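Of 2087 values of single genes under alternatives, 1987 moved by less than their counting interval, 99 moved further and 1 turned: Gaa in monocyte- or granulocyte-like over microglia-like cells was -1.94 from 1 and 2 UMIs, and 0.7763 in thinned cells, where sums of 0 were set to the floor of 3 counts. For stressed over control in microglia-like cells, the count of 1 member became 2 in female cells and 0 at a fold of 2. The summed level, -0.0638, became 0.0437 with TMM factors, 0.0413 with DESeq2 size factors, -0.0854 as a mean of per-cell CPM and -0.0229 after a stricter cell filter (1000 genes, 5% mitochondrial UMIs). The count of 6 in border-macrophage-like cells became 11 in thinned cells and 1 at a fold of 2. Counts for neural-like (30, range 24 to 31) and monocyte- or granulocyte-like cells (13, range 9 to 15) stayed within 1.5 times. Among states, G2/M went from 0 to 2 with another seed, 2 with strict gates, 3 with TMM factors and 2 with clusters in place of the gate. S phase went from 0 to 3 with strict gates. Cells with Ccl3 and Ccl4 went from 1 to 3 with another seed, 2 with strict gates, 2 with totals without the gate genes, 0 at a fold of 2 and 0 in female cells. Spp1 cells went from 0 to 1 with another seed, 1 with strict gates and 6 with clusters (5 higher, 1 lower). The causes were not tested. The cluster used for Spp1 had Ccl3 and Ccl4 as well as Spp1 among its top genes, so it did not separate these 2 states. No cluster was set against the S-phase gate or the Ccl3 and Ccl4 gate, so that alternative was not run there. The neural-like limit, the shared barcodes, female cells within classes and states, and the removal of the 1% of cells with most UMIs were chosen after seeing the data. No paired analysis was possible because each condition had 1 library.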
